A study of Mus musculus with 25 samples.

Results

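Fos, Fosb, Fosl1, Fosl2, Junb, Egr1, Egr2, Egr3, Atf3 and Myc, the transcription factor genes best known for their early response to serum, were examined in cultured neonatal mouse cardiac myocytes. These 10 genes were taken from the 19938 genes that had a probe set annotated to them alone on the Affymetrix Mouse Gene 1.0 ST array. Each of the 10 had 1 such probe set, so no choice between probe sets was needed. TG myocytes came from transgenic mice that overexpress CHF1/Hey2, a Hairy-related transcriptional repressor, in the myocardium from the mlc2v promoter, which is active in ventricular myocytes, and WT myocytes carried no transgene. Both were kept in serum free medium, and the treated cultures then received medium with 20% fetal bovine serum for 24 h before RNA was taken. Without serum there were 6 TG and 5 WT cultures, with serum 7 TG and 7 WT cultures, and each culture had 1 array. The methods count them as independent cultures, but the age of the pups, the number of animals pooled and the litters are not given in the sources used here, so a p value speaks only of the spread among cultures.

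Immediate early genes are transcribed within minutes of a growth signal, without new protein synthesis, and most are shut off again within hours by their own products and by rapid decay of their mRNA. Serum reaches them through the ERK pathway, which acts on serum response factor and its partners at the CArG box, and through CREB family factors at cyclic AMP response elements. Fos and Jun proteins pair as AP-1, Egr proteins are zinc finger factors held in check by the Nab corepressors, Atf3 is a stress-induced repressor of the same bZIP class as Fos, and Myc pairs with Max to drive growth and ribosome genes. In cardiac myocytes, Fos, Egr1 and Myc are long known as the first genes induced by hypertrophic stimuli. RNA taken after 24 h therefore shows the late state of the response, not its early peak.

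The promoter table of RefSeq (GRCm38.p6) held 6 of the 10 genes, namely Fos, Fosb, Fosl2, Junb, Egr2 and Atf3, with 10 start sites among them because Egr2 had 5. Fosl1, Egr1, Egr3 and Myc had no entry. The 250 bases upstream of each start were searched on both strands for the CArG box, the cyclic AMP response element TGACGTCA and its half-site TGACG, the AP-1 site TGACTCA, the E-box CACGTG that Myc binds, and CACGCG, an E-box form that Hey proteins can bind. The half-site lies within the full element, and it was added after the sequences had been seen. The promoters of 4 genes are shown whole because their genes ranked in opposite directions in the serum comparison described further on, with Fos and Junb ranked lower with serum, Atf3 lower in TG myocytes and Fosl2 higher. Capitals mark every match.
Fos, chr12:85473640-85473889, plus strand: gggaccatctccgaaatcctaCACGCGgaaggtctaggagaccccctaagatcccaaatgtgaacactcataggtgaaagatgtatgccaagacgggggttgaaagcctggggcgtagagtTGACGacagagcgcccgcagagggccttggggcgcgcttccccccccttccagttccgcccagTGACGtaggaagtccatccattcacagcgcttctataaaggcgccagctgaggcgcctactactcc
Junb, chr8:84978749-84978998, minus strand: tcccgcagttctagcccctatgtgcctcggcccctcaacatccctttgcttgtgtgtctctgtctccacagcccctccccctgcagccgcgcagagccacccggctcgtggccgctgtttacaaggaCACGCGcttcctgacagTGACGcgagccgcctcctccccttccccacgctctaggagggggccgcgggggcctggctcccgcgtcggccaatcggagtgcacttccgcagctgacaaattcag
Atf3, chr1:191183334-191183583, minus strand: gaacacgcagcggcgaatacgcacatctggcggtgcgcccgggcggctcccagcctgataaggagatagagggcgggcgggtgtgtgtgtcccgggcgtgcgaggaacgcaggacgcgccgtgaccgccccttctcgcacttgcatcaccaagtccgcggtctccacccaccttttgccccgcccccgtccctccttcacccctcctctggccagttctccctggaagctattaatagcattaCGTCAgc
Fosl2, chr5:32136222-32136471, plus strand: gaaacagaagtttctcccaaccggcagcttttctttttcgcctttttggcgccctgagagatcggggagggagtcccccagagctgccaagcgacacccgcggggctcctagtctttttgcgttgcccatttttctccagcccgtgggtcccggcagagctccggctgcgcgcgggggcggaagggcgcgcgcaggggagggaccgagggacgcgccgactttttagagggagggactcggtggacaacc

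Egr2 was the only gene of the 6 with a CArG box in these windows, at 4 of its 5 starts, and 30 bases around the box are shown for the 2 distinct sites. Capitals mark the box and, in the second stretch, the half-site TGACG read on the other strand (CGTCA).
Egr2, start 2, chr10:67537484-67537513, plus strand: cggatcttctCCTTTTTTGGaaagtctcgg
Egr2, start 3, chr10:67537792-67537821, plus strand: tcagtCCATATATGGgcagcgaCGTCAcgg
The box began at base -72 from both starts, and the box of starts 4 and 5 (bases -73 and -133) lay at the same place in the genome as that of start 3. Of 32851 promoters of this length, 1.47% held a CArG box. The half-site TGACG, present in 17.8% of all promoters, was found in Fos, Fosb, Junb, Atf3 and 3 starts of Egr2, and Fosl2 had no match to any motif searched. TGACGTCA, held by 1.55% of promoters, and TGACTCA, held by 4.46%, matched none of the 10. CACGCG, held by 7.62%, began at base -229 of Fos and at -123 of Junb, and CACGTG, held by 6.02%, stood at the first start of Egr2. A match here is a run of letters, and binding was not measured.

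The deposited values are log2 intensities. They stood on different scales in the 2 serum sets, with array medians of 4.99 to 5.09 without serum and 5.21 to 5.36 with serum, and a middle SD over probe sets of 2.12 against 2.57. An exact repeat of a value between arrays was found for 46.0% of the 35557 probe sets without serum and for 1.79% with serum. Serum and separate processing of the sets cannot be told apart, so the genotypes were compared inside a set, and the state after serum is given as a rank within each array. Hey2, the transgene's product, was higher in every TG array than in every WT array of its set, at 7.08 to 8.55 against 6.12 to 6.37 without serum and at 7.94 to 9.36 against 6.59 to 7.36 with serum. The mean of 12 cardiac myocyte markers was 10.3 to 11.8, among the brightest genes of every array, but it lay more than 0.4 log2 below the mean of its set in 6 cultures (TG 4, TG 5 and WT 2 without serum and TG 6, WT 3 and WT 4 with serum).

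All 10 factors were measured well within the range of the array, with means over the 25 arrays from 6.26 to 8.35, and none fell under the log2 value of 5 below which a probe set was taken as dim. None differed between TG and WT myocytes past the adjusted test in either set. Without serum 0 of 10 passed an adjusted p of 0.05 in limma, as did 0 of all 35557 probe sets (0%), and 0 of the 10 had an unadjusted p under 0.05, beside 2006 probe sets (5.64%). Hey2 itself did not pass without serum (difference 1.584, SE 0.256, unadjusted p = 6.47e-05, adjusted p = 0.853 in limma). It passed with serum (1.815, adjusted p = 0.00972). A factor that did not pass, above all without serum, may therefore still differ. With serum 0 of 10 passed, beside 3 of all probe sets (0.00844%), and 2 of the 10, Fosb and Egr3, had an unadjusted p under 0.05, beside 3803 probe sets (10.7%). The groups overlapped for all 10 genes in both sets, while 0.306% of all genes without serum and 0.256% with serum had groups that did not overlap. The median difference of the 10 was -0.03 without serum, beside -0.01 over all genes, and -0.10 with serum, beside -0.02. Without serum the mean was lower in TG myocytes for 8 of the 10, beside 10921 of all 19938 genes. This count became 5 of 10 when each array was centred on its median. With serum the mean was lower for 7 of the 10, beside 11053 of all 19938 genes. With serum it was lower for 5 of 10 when the cultures low in myocyte markers were left out.

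**Figure D1:**
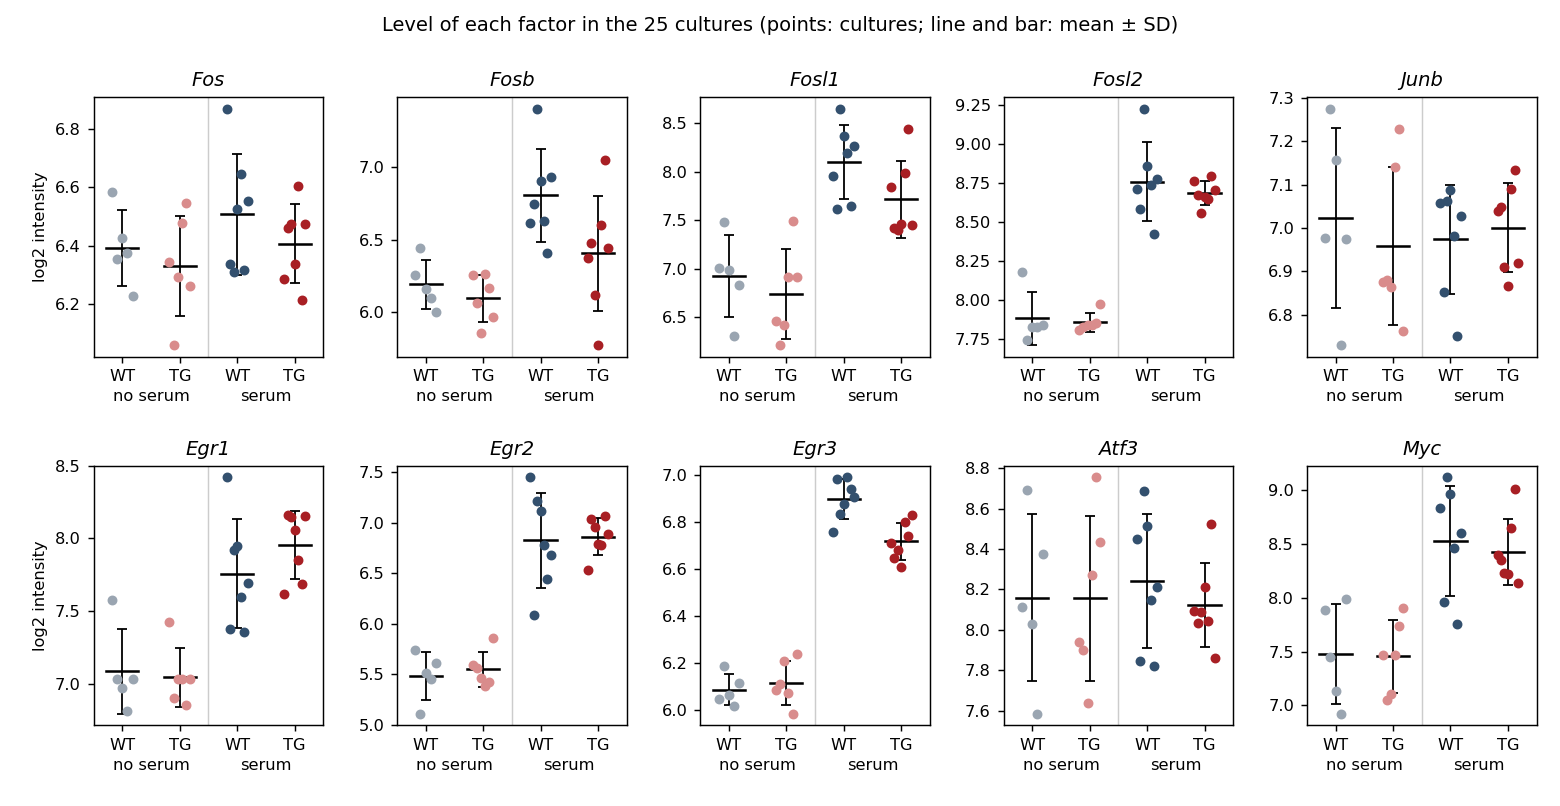
Log2 intensity of the 10 factors in each of the 25 cultures (points), with the group mean (line) and SD (bar). Colours give the 4 groups, and the axes of the panels differ. TG and WT cultures of the same serum set overlap in every panel, and heights with and without serum are on 2 scales and cannot be compared directly.

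The 4 Fos family genes encode the partners of Jun proteins in AP-1. Fos (probe set 10397346), the founding member, had log2 values of 6.06, 6.32 and 6.55 (lowest, median and highest) in the 6 TG cultures without serum and of 6.59, 6.36, 6.43, 6.37 and 6.23 in the 5 WT cultures. With serum it had 6.21, 6.46 and 6.60 in TG and 6.31, 6.53 and 6.87 in WT myocytes. The groups overlapped in both sets, with the lowest value in a TG and the highest in a WT culture each time. The log2 difference was -0.06 (SE 0.09, adjusted p = 0.942) without serum and -0.10 (SE 0.09, adjusted p = 0.717) with serum.

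Fosb (probe set 10560481), a close relative of Fos, showed the largest difference of the 10 with serum. It had 5.78, 6.44 and 7.05 in TG and 6.41, 6.74 and 7.41 in WT cultures (lowest, median and highest of 7). Of the TG cultures, 3 lay below the lowest WT culture and 1 WT culture above the highest TG culture. The difference was -0.40 (SE 0.18, 95% interval -0.78 to -0.02), and limma gave an unadjusted p of 0.0401 and, over all probe sets, an adjusted p of 0.445. Without serum Fosb had 5.86, 6.12 and 6.27 in TG and 6.26, 6.44, 6.16, 6.10 and 6.01 in WT cultures, a difference of -0.10 (SE 0.09, adjusted p = 0.919).

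Fosl1 (probe set 10460585), which encodes Fra-1, the AP-1 subunit that follows Fos late in a growth response, had 7.40, 7.47 and 8.44 in TG and 7.62, 8.20 and 8.65 in WT cultures with serum. In TG myocytes 4 cultures sat together at 7.40 to 7.47, below all WT cultures. The difference was -0.39 (SE 0.19, 95% interval -0.79 to 0.02, adjusted p = 0.494 in limma). Without serum it had 6.22, 6.69 and 7.50 in TG and 7.01, 7.49, 6.99, 6.31 and 6.83 in WT cultures, with the widest spread among the 10, and the difference was -0.19 (SE 0.25, adjusted p = 0.941). Fosl2 (probe set 10520862), which encodes Fra-2, had 8.56, 8.67 and 8.80 in TG and 8.42, 8.74 and 9.23 in WT cultures with serum. Without serum the Fosl2 values were 7.80, 7.84 and 7.97 in TG and 8.17, 7.74, 7.82, 7.83 and 7.84 in WT cultures. These were tight groups, and 3 arrays held exactly 7.838. The differences of Fosl2 were -0.03 (SE 0.07) and -0.07 (SE 0.10), and their sign turned when each array was centred on its median without serum (0.006) and when the 3 cultures low in myocyte markers were left out with serum (0.02).

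Junb (probe set 10580282), the Jun family member that restrains Jun and cell division, differed least between TG and WT myocytes with serum. It had 6.76, 6.88 and 7.23 in TG and 6.98, 7.28, 7.16, 6.73 and 6.98 in WT cultures without serum. With serum it had 6.87, 7.04 and 7.14 in TG and 6.75, 7.03 and 7.09 in WT cultures. The differences were -0.07 (SE 0.11, adjusted p = 0.947) and 0.03 (SE 0.07, 95% interval -0.12 to 0.17, adjusted p = 0.917 in limma).

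Of the 3 Egr genes, Egr3 stood apart. Egr3 (probe set 10416251), a zinc finger factor that is itself a target of Egr1 in several cell types, had 6.61, 6.71 and 6.83 in TG and 6.75, 6.90 and 6.99 in WT cultures with serum. Of the 7 TG cultures, 5 lay below every WT culture. The difference was -0.18 (SE 0.05, 95% interval -0.30 to -0.07, 0.882-fold). Its unadjusted p in limma was 0.00424 and its adjusted p 0.310, so the gene did not pass. Without serum Egr3 had 5.98, 6.10 and 6.24 in TG and 6.04, 6.19, 6.06, 6.02 and 6.11 in WT cultures, a difference of 0.03 (SE 0.05). Fitted over the 25 arrays, the difference between the 2 effects was -0.21 (SE 0.07, unadjusted p = 0.00916, adjusted p = 1). In that comparison 1 of 35557 probe sets passed (0.00281%), and 0 of the 10 factors.

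Egr1 (probe set 10454782), the classic growth factor response gene of the family, was the member with the most positive difference with serum. It had 7.62, 8.06 and 8.16 in TG and 7.36, 7.70 and 8.42 in WT cultures. In TG myocytes 4 cultures lay at 8.06 to 8.16, yet the highest value belonged to WT culture 1. The difference was 0.20 (SE 0.16, 95% interval -0.14 to 0.53, adjusted p = 0.672 in limma). Without serum Egr1 had 6.85, 7.03 and 7.43 in TG and 7.58, 7.03, 6.97, 6.81 and 7.03 in WT cultures, where 5 of the 11 arrays held exactly 7.031, and the difference was -0.04 (SE 0.14). Egr2 (probe set 10363735), best known for the myelin program of Schwann cells, had 6.53, 6.88 and 7.06 in TG and 6.08, 6.78 and 7.45 in WT cultures with serum, a difference of 0.04 (SE 0.18). Without serum Egr2 had 5.39, 5.52 and 5.86 in TG and 5.74, 5.11, 5.51, 5.45 and 5.61 in WT cultures, a difference of 0.06 (SE 0.11). In both sets the WT cultures of Egr2 spanned a wider range than the TG cultures and enclosed or nearly enclosed it.

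Atf3 (probe set 10361091), induced by many kinds of stress, had 7.64, 8.11 and 8.75 in TG and 8.11, 8.69, 8.03, 7.59 and 8.38 in WT cultures without serum, and 7.86, 8.09 and 8.53 in TG and 7.82, 8.21 and 8.69 in WT cultures with serum. The TG values fell inside or close to the WT range each time. The differences were -0.002 (SE 0.22) and -0.12 (SE 0.14, adjusted p = 0.797 in limma). Myc (probe set 10424400), the growth regulator, had 7.05, 7.47 and 7.91 in TG and 7.89, 7.45, 7.13, 6.92 and 7.99 in WT cultures without serum, and 8.14, 8.35 and 9.01 in TG and 7.76, 8.60 and 9.12 in WT cultures with serum. The differences were -0.02 (SE 0.22) and -0.10 (SE 0.21, 95% interval -0.54 to 0.34, adjusted p = 0.893).

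**Figure D2:**
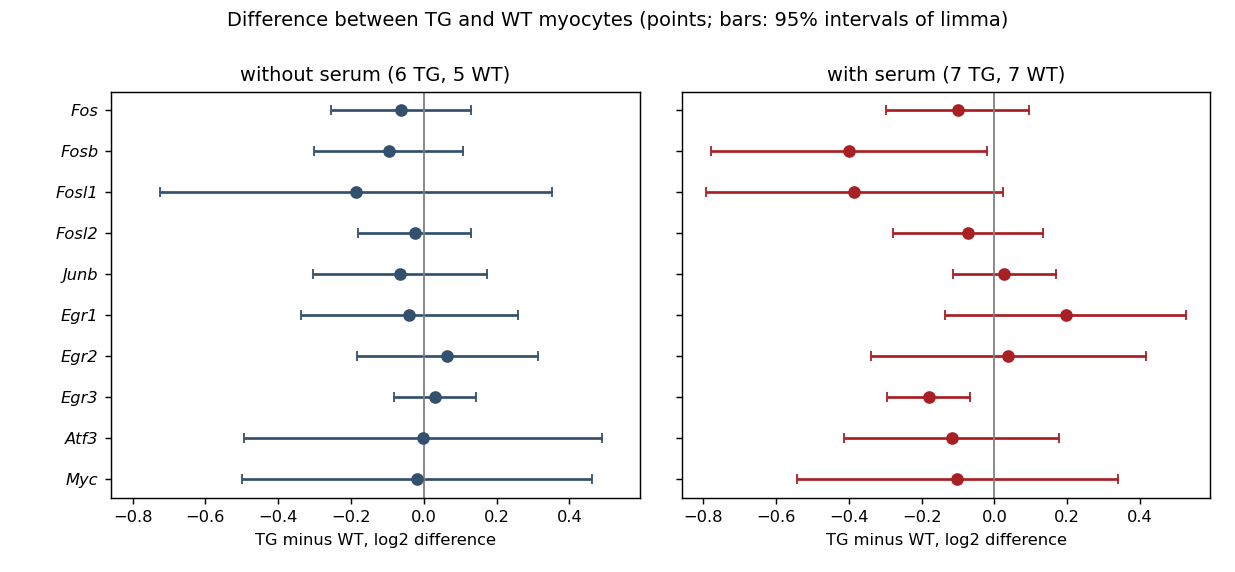
Log2 difference of TG minus WT myocytes for the 10 factors without serum (left) and with serum (right), with 95% intervals from limma as bars. The intervals of Fosb (-0.78 to -0.02) and Egr3 (-0.30 to -0.07) with serum lie below 0, and all others include 0.

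The level of several of these genes followed the cell type markers of the culture, and the markers themselves were not balanced between the genotypes. With serum all 12 cardiac myocyte markers had a higher mean in the TG cultures (median difference 0.40, none past the adjusted test), with list means of 10.7 to 11.8 in TG and 10.6 to 11.5 in WT cultures. All 10 endothelial markers had lower means (median -0.27, list means 5.39 to 6.44 in TG and 5.74 to 6.51 in WT cultures). Of the fibroblast markers 7 of 10 were lower (median -0.06, list means 8.32 to 8.84 and 7.92 to 9.03). Higher means were also found for 6 of 10 macrophage (median 0.24) and 6 of 8 smooth muscle markers (0.06), and lower means for 6 of 10 epicardial markers (-0.15). Of all 19938 genes, 11053 had a lower and 8885 a higher mean in the TG cultures with serum. Without serum 10 of 12 myocyte markers were higher (median 0.12). Lower means were found there for 8 of 10 endothelial (-0.03), macrophage (-0.14) and epicardial markers (-0.125) each, beside 10921 of all 19938 genes. With the myocyte marker mean as a covariate in limma, the difference with serum was -0.05 (SE 0.07) for Fosl1, -0.14 (SE 0.13) for Fosb, 0.06 (SE 0.11) for Atf3 and 0.21 (SE 0.14) for Myc, so those of Atf3 and Myc turned sign, as did that of Fosl2 (0.05, SE 0.08). That of Egr3 was -0.18 (SE 0.06, unadjusted p = 0.00925, adjusted p = 0.26) and hardly moved. With this covariate 4 of the 10 genes had a lower mean in TG myocytes in place of 7. In RNA of a whole culture, fewer cells of a type and less RNA per cell cannot be told apart. The paper reports a high myocyte purity for each preparation, from immunostaining for sarcomeric myosin. Purity values of single cultures are not given in the sources used here.

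Where each factor stood after 24 h of serum was read from its rank within the array, from 0 for the dimmest to 100 for the brightest of the 19938 genes. A rank depends on how well a probe set hybridizes, so the same gene was compared between arrays and genes were not compared with each other. Every factor except Egr2 ranked above 50 in all groups on average, with group means from 46.8 (Egr2, WT without serum) to 85.9 (Fosl2, WT with serum). In WT myocytes 4 of the 10 ranked higher with serum past the adjusted test (Egr2, Fosl1, Egr3 and Fosl2), beside 28.6% of all genes, and 2 ranked lower (Junb and Fos), beside 28.5%. In TG myocytes 6 ranked higher (Egr2, Fosl1, Myc, Egr1, Fosl2 and Egr3), beside 30.8%, and 3 lower (Atf3, Junb and Fos), beside 31%. The median change of the 10 was 4.25 percentile points in WT and 3.44 in TG myocytes, beside 0.03 over all genes in both. So many genes shifted rank that a shift alone sets no gene apart, and separate processing of the 2 sets cannot be told apart from serum.

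**Figure D3:**
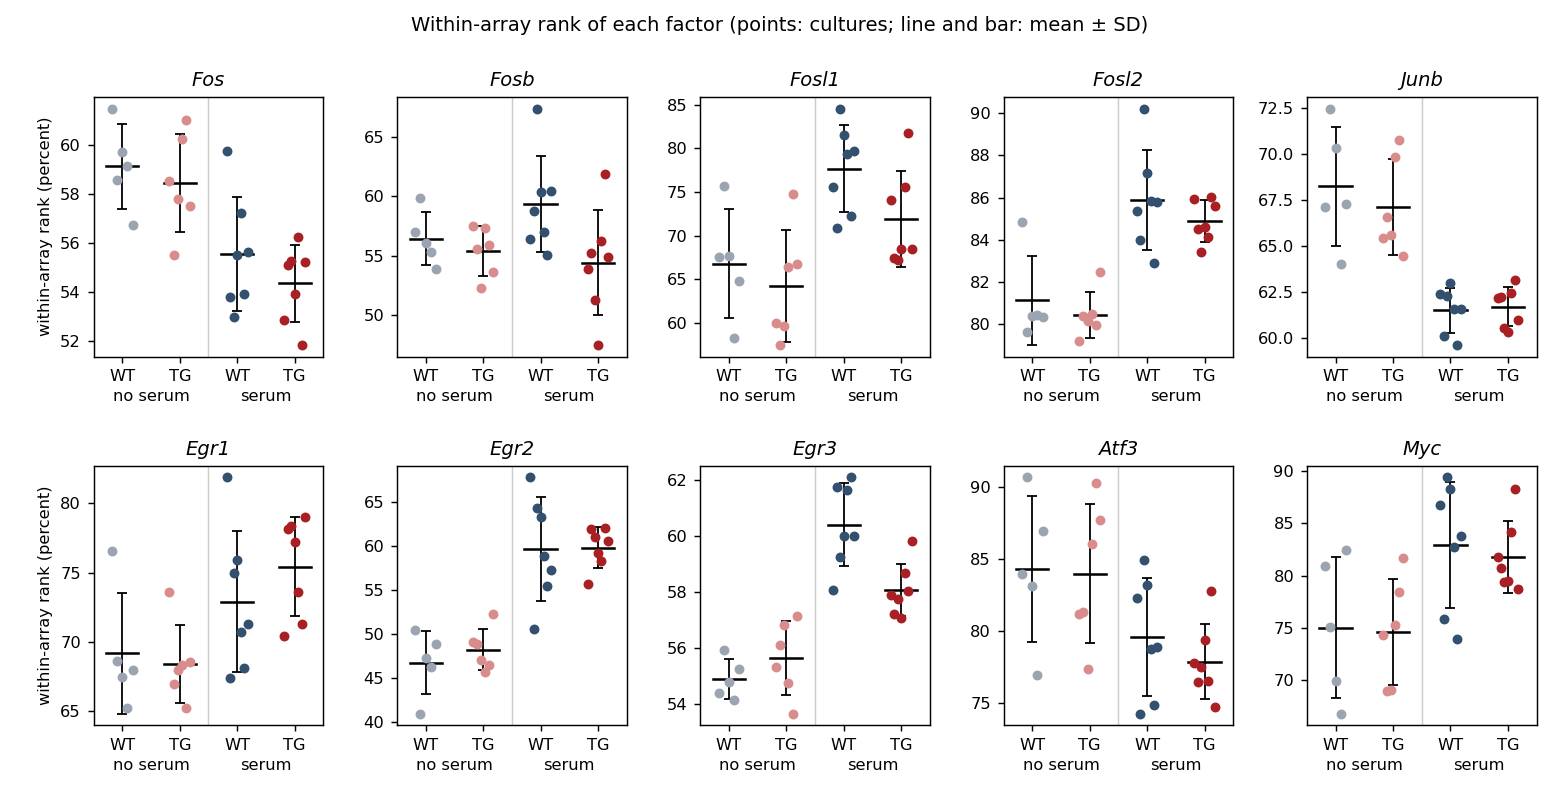
Within-array rank, in percent of 19938 genes, of the 10 factors in each culture (points), with the group mean (line) and SD (bar). Egr2 rises from 46.8 to 59.7 in WT and from 48.2 to 59.9 in TG myocytes on average, while Junb lies lower with serum in both.

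Egr2, Egr3, Fosl1 and Fosl2 ranked higher with serum in both genotypes. Egr2 moved most, from ranks of 50.4, 41.0, 47.3, 46.3 and 48.9 in WT cultures without serum to 50.6, 58.9 and 67.8 (lowest, median and highest) with serum, a shift of 12.9 percentile points (SE 2.74, adjusted p = 0.00151 in limma). In TG cultures it moved from 45.7, 48.0 and 52.3 to 55.7, 60.6 and 62.0, a shift of 11.6 (SE 1.22, adjusted p = 2.65e-06). All cultures with serum lay above all without in both genotypes. Egr3 moved by 5.49 points (SE 0.735) in WT cultures, again without overlap, from a mean of 54.9 to 60.4, and by 2.43 (SE 0.644, adjusted p = 0.00504) in TG cultures, where the groups overlapped. The difference between these 2 shifts was -3.06 points (SE 0.966, unadjusted p = 0.00428, adjusted p = 1), and in this comparison 1 of 19938 genes passed (0.00502%). Egr1 shifted by 7.00 points (SE 1.69, adjusted p = 0.00271) in TG and by 3.74 (SE 2.58, adjusted p = 0.235) in WT cultures, and the difference between these shifts was 3.26 (95% interval -3.25 to 9.77).

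Fosl1 shifted by 10.9 points (SE 2.97, adjusted p = 0.00766) in WT cultures, from a mean rank of 66.8 to 77.7, and by 7.67 (SE 3.04, adjusted p = 0.0418 in limma) in TG cultures, from 64.2 to 71.9. The TG shift of Fosl1 was lost when any 1 of 7 cultures was left out (TG 1, 2, 3 and 4 without serum and TG 1, 5 and 6 with serum), with adjusted p values of 0.0510 to 0.0955, and with the exact permutation test of the mean rank (adjusted p = 0.0514). Fosl2 shifted by 4.77 (SE 1.25, adjusted p = 0.00588) and 4.45 (SE 0.602, adjusted p = 2.6e-05), and every TG culture with serum lay above every one without. Myc shifted by 7.13 points (SE 2.17, adjusted p = 0.0115) in TG cultures and by 7.91 (SE 3.39, adjusted p = 0.0634) in WT cultures, where it did not pass, though it did without any 1 of WT 1 or 5 without serum or WT 2 or 6 with serum (adjusted p from 0.0259 to 0.0454). The values of Myc overlapped between the sets in both genotypes, at 66.8 to 82.4 and 73.9 to 89.4 in WT cultures.

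Junb and Fos ranked lower with serum in both genotypes. Junb shifted by -6.73 points (SE 1.26, adjusted p = 0.000613 in limma) in WT and by -5.43 (SE 1.02, adjusted p = 0.000421) in TG cultures, and all cultures with serum lay below all without, at 59.6 to 63.0 against 64.0 to 72.5 in WT and at 60.3 to 63.1 against 64.4 to 70.8 in TG. Fos shifted by -3.58 (SE 1.18, adjusted p = 0.0204) in WT and by -4.07 (SE 0.949, adjusted p = 0.00212) in TG cultures, with overlapping groups, and the WT shift was lost without WT culture 1 without serum (adjusted p = 0.0583) or without the 3 WT cultures low in myocyte markers (adjusted p = 0.0846). Atf3 shifted by -6.13 (SE 1.95, adjusted p = 0.0146) in TG and by -4.74 (SE 2.44, adjusted p = 0.116) in WT cultures, where it passed without WT culture 4 without serum (-6.58, adjusted p = 0.0273). Fosb shifted by 2.90 (SE 1.87) in WT and by -0.96 (SE 1.84) in TG cultures and passed in neither. On the deposited log2 scale the direction turned for Fos (0.12 in WT and 0.08 in TG), Atf3 in WT (0.08), Junb in TG (0.04) and Fosb in TG (0.31). The 2 sets stand on different log2 scales, so a change in intensity cannot be read from these values. After quantile normalization of the 25 arrays together, 3 of 10 genes were lower with serum in WT and 4 of 10 in TG cultures. The ranks gave the same counts. Quantile normalization keeps the order of values within an array, so this match was nearly fixed in advance and adds no support. Groups without any overlap were frequent in the whole table too. In WT cultures Egr2 and Egr3 lay wholly above, as did 18.5% of all genes, and Junb below, as did 19.3%. In TG cultures Egr2 and Fosl2 lay above, beside 18% of all genes, and Junb below, beside 19%.

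The spread between cultures of 1 group was wide for some of these genes and not for others. The residual SD of Fosl1, Atf3 and Myc without serum was 0.447, 0.409 and 0.399, above that of 97.7%, 97.0% and 96.8% of genes, beside a median of 0.106 over all genes. With serum the SDs of Myc, Fosl1, Fosb and Egr2 were 0.421, 0.388, 0.360 and 0.358, above 96.2% to 98.1% of genes, beside a median of 0.157. Egr3 was the steadiest of the 10, with an SD of 0.082 with serum, larger than that of 7.07% of genes. Junb (0.115, 22.8%), Fos (0.175, 61.1%) and Fosl2 (0.186, 66.8%) were nearer the middle or below it with serum, as was Fosl2 without serum (0.122, 60.1%).

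Several of these genes were high and low in the same cultures. For this, each value was taken as the deviation from the mean of its group, and Pearson's r and Spearman's rank coefficient (rs) were tested by permutation of cultures within groups. With serum 15 of 45 pairs passed an adjusted p of 0.05 over the 90 pairs of both sets, all with a positive r, and 11 passed by rs. The share of all gene pairs that would pass was not computed, so these counts do not set the factors apart from other genes. The highest were Atf3 with Myc (r = 0.925, permutation p = 9e-05, adjusted 0.004, rs = 0.855, p = 0.00047, adjusted 0.013, r = 0.878 without the 2 farthest cultures) and Junb with Myc (r = 0.922, permutation p = 1e-05, the smallest that 100000 permutations can give, adjusted 0.0009, rs = 0.93, also 1e-05, r = 0.914). Egr1 passed only with Egr2 (r = 0.818, permutation p = 0.0017, adjusted 0.013, rs = 0.741, p = 0.0046, adjusted 0.042, r = 0.701), and WT culture 1 had the highest value of Egr1, Egr2 and Fos. Fos and Egr3 passed with no other member. Without serum 2 of 45 pairs passed (1 by rs), Fosl1 with Atf3 (r = 0.91, permutation p = 0.001, adjusted 0.013, rs = 0.936, p = 0.00083, adjusted 0.013, r = 0.831) and Fosl1 with Junb (r = 0.801, permutation p = 0.0078, adjusted 0.041, rs = 0.709, p = 0.028, adjusted 0.12, r = 0.618).

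**Figure D4:**
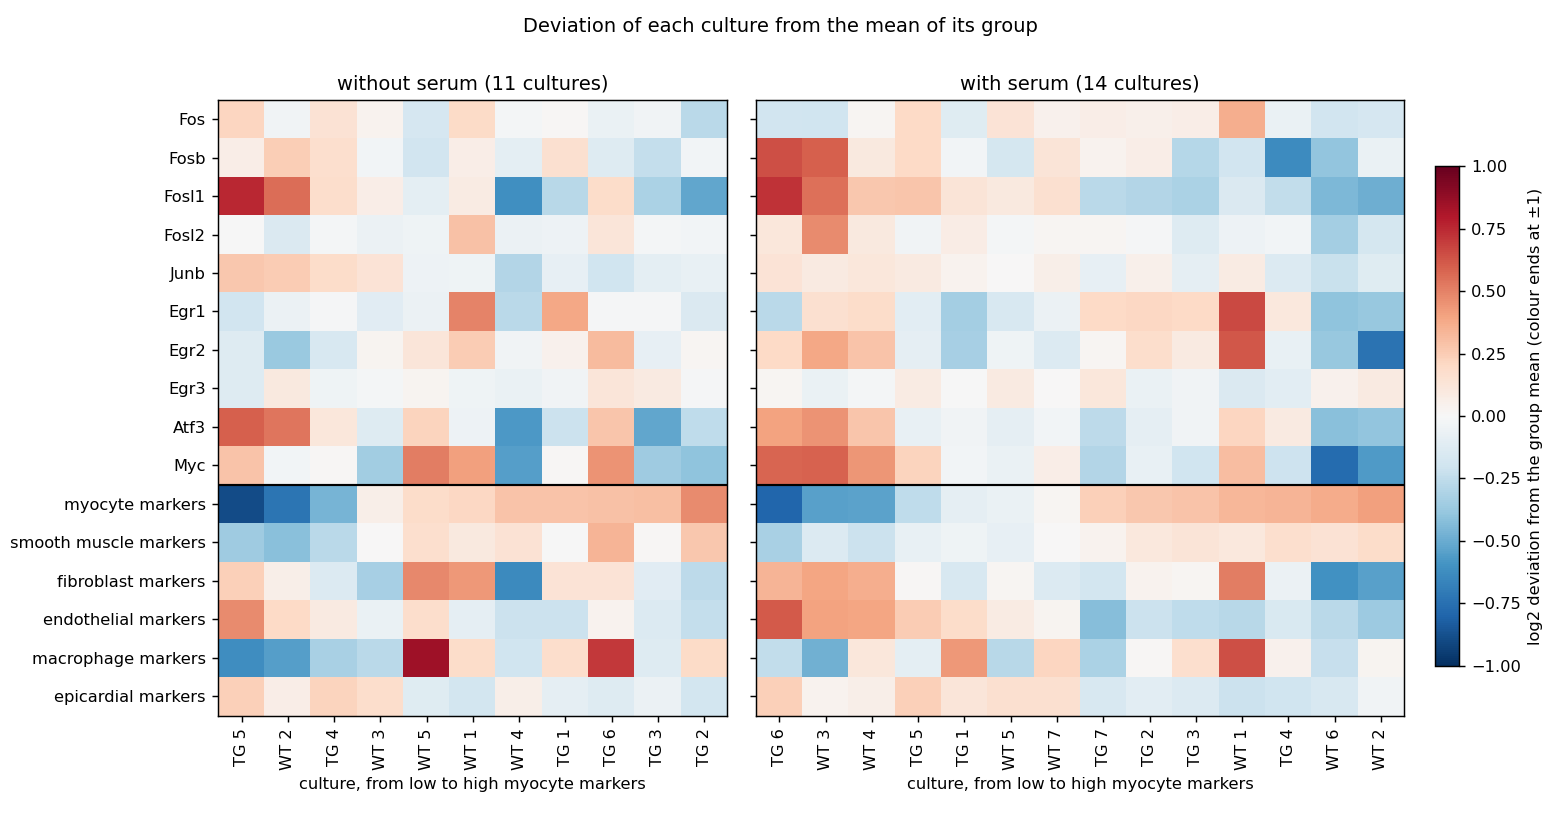
Log2 deviation of each culture from the mean of its group (colour) for the 10 factors and the mean of 6 cell type marker lists (rows), without serum (left) and with serum (right), with cultures ordered by their myocyte markers. Fosl1 and the myocyte markers run in opposite colours, and Fosb, Atf3, Myc and Fosl2 are high in TG 6 and WT 3 with serum, which are low in myocyte markers.

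The shared ups and downs followed cell type markers. With serum 24 of 60 relations of the 10 genes to 6 marker lists passed, adjusted over the 120 of both sets, and without serum 9 of 60 (17 and 5 by rs). This test was not run over all genes, so the counts do not set the factors apart. Shares of all genes beyond an r of 0.7 or -0.7 are given where a relation is named. These relations were chosen after the data had been seen. Fosl1 opposed the myocyte markers most closely, with r = -0.957 over 14 cultures with serum (permutation p = 1e-05, the smallest possible, adjusted 0.0006, rs = -0.916, p = 3e-05, adjusted 0.0036, r = -0.91 without the 2 farthest cultures) and r = -0.859 over 11 cultures without serum (permutation p = 0.0004, adjusted 0.0059, rs = -0.709, p = 0.012, adjusted 0.06, r = -0.6). Since the cultures low in myocyte markers stood apart, r was also taken in the others alone. It was -0.944 over 11 cultures with serum (permutation p = 0.00086, rs = -0.818, p = 0.006) and -0.704 over 8 without (permutation p = 0.093, rs = -0.524, p = 0.19), so without serum the relation kept its sign but not a p under 0.05 in the 8 cultures. In TG 6 with serum, the lowest TG culture in myocyte markers at 10.7, Fosl1 reached 8.44, and in TG 4, the highest at 11.8, it was 7.47. Of all genes, 11% had an r of -0.7 or below with the myocyte markers with serum, and 11.7% without. Myc (r = -0.818), Fosb (-0.805), Junb (-0.743), Atf3 (-0.729) and Fosl2 (-0.707) also passed with serum, with permutation p from 0.00037 to 0.0061 (adjusted 0.0059 to 0.026). Their rs ran from -0.609 to -0.842, with permutation p from 0.00068 to 0.039 (adjusted 0.0099 to 0.13, Atf3 not passing), and r without the 2 farthest cultures from -0.489 to -0.698. Over the 11 cultures that were not low, those were -0.557, -0.560, -0.644, -0.186 and -0.514, with unadjusted permutation p from 0.048 to 0.58. With serum the same 6 genes also passed with a negative r against the smooth muscle markers. This list is uneven. In WT cultures with serum its genes Acta2 and Des had mean ranks of 99.9 and 99.7, and Myh11 and Lmod1 of 44.6 and 49.3. Whether it reads other cells than the myocyte list was not tested in either set. Fosl1 was again the closest (r = -0.93, permutation p = 5e-05, adjusted 0.002, rs = -0.899, p = 9e-05, adjusted 0.0048), beside 10.02% of genes at -0.7 or below.

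Myc followed the fibroblast markers in both sets, with r = 0.913 with serum (permutation p = 0.00037, adjusted 0.0059, rs = 0.798, p = 0.0024, adjusted 0.02, r = 0.823 without the 2 farthest cultures) and r = 0.914 without serum (permutation p = 0.00083, adjusted 0.0066, rs = 0.866, p = 0.0037, adjusted 0.026, r = 0.866). Without the cultures low in myocyte markers these were 0.868 (11 cultures, permutation p = 0.013) and 0.924 (8 cultures, permutation p = 0.011). With serum Egr2 (r = 0.92, permutation p = 7e-05, adjusted 0.0021, rs = 0.925, p = 0.00019, adjusted 0.0057, r = 0.896) and Atf3 (r = 0.911, permutation p = 0.00032, adjusted 0.0059, rs = 0.763, p = 0.0088, adjusted 0.048, r = 0.841) also followed the fibroblast markers, beside 9.2% of all genes at 0.7 or above. Fosl1 followed the endothelial markers with serum (r = 0.951, permutation p = 1e-05, adjusted 0.0006, rs = 0.881, p = 0.00012, adjusted 0.0048, r = 0.913), which 10.6% of genes did at 0.7 or above, and Atf3 did so without serum (r = 0.893, permutation p = 0.00044, adjusted 0.0059, rs = 0.891, p = 0.00085, adjusted 0.0099, r = 0.825), as did 8.59%. Without serum Egr2 followed the macrophage markers (r = 0.801, permutation p = 0.0074, adjusted 0.031, rs = 0.827, p = 0.0047, adjusted 0.029, r = 0.777, beside 4.72% of genes). Its r was as high with the smooth muscle markers (0.826, permutation p = 0.0024, adjusted 0.013, beside 7.76% of genes), though rs did not pass there (0.727, p = 0.02, adjusted 0.079). Egr3 passed with no marker list in either set, nor did Fos or Egr1 over all cultures. In the 11 cultures with serum not low in myocyte markers, Fos had r = 0.908 with the fibroblast markers (unadjusted permutation p = 0.0028, rs = 0.782, p = 0.024). Egr1 had 0.833 there (unadjusted permutation p = 0.011, rs = 0.609, p = 0.053). Over all 14 cultures with serum, r was 0.371 for Fos (permutation p = 0.29) and 0.667 for Egr1 (permutation p = 0.026, adjusted 0.081). Without the 2 farthest cultures these were 0.055 and 0.459. The subset was chosen after the data had been seen, and the share of all genes was not computed in it. The median rank of the endothelial markers was 37.4 to 56.2 over the 25 cultures, and that of the fibroblast markers 73.3 to 94.9. What part cell composition has in the level of any of these factors was not tested beyond the covariate above.

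**Figure D5:**
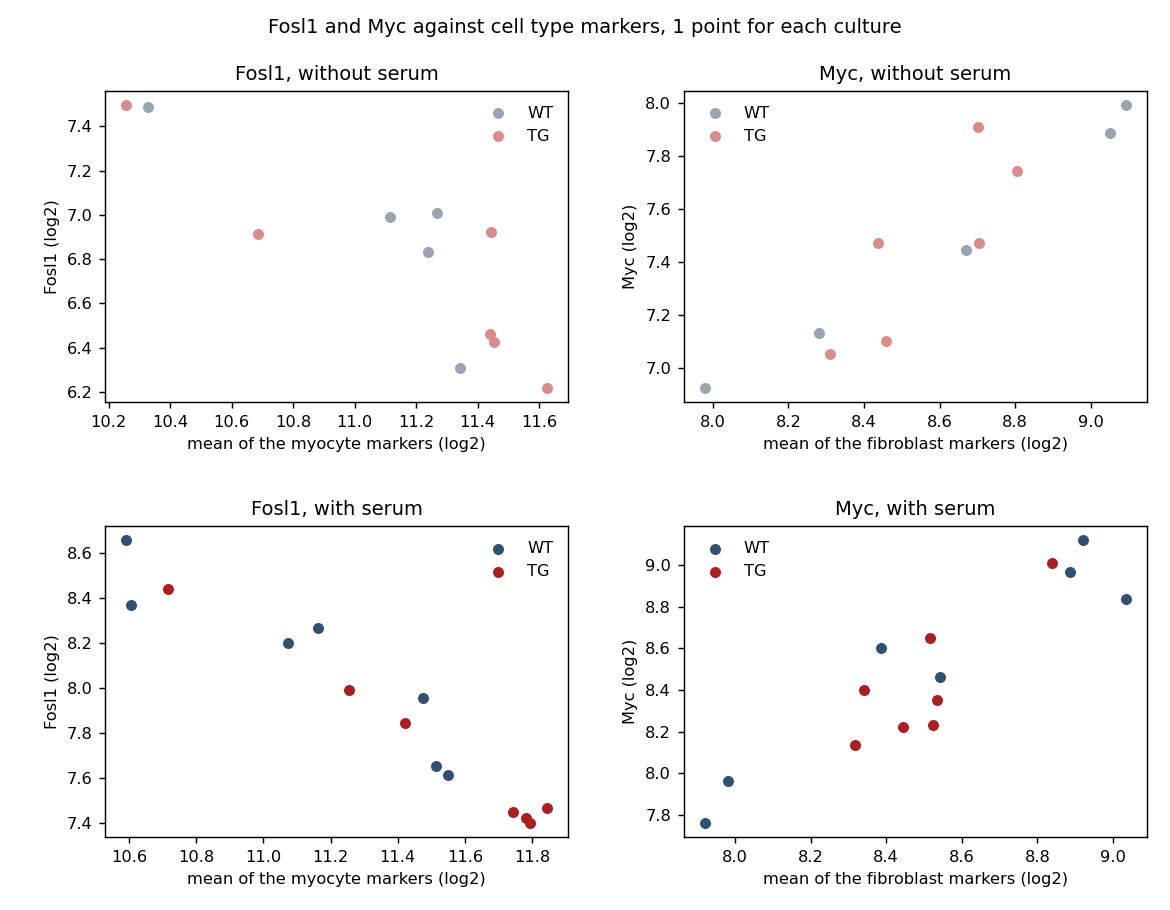
Left, Fosl1 against the mean of 12 cardiac myocyte markers, and right, Myc against the mean of 10 fibroblast markers, all in log2, with 1 point for each culture and the sets without serum above and with serum below. With serum Fosl1 is highest, at 8.65, in the culture with the lowest myocyte markers (WT 3, 10.6) and 7.47 in the culture with the highest (TG 4, 11.8).

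The genes whose deviations were most like those of Myc over the 25 arrays were Eng (r = 0.974), the endoglin coreceptor of TGF-beta, Fbln2 (0.970), an extracellular matrix protein, Bgn (0.965), the proteoglycan biglycan, Septin11 (0.964) and Tmod3 (0.962). For Egr1 they were Aldh1l2 (0.826), a folate enzyme of mitochondria, Dpt (0.806), the matrix protein dermatopontin, Aspn (0.802), which was dim, Rad21 (0.780), a cohesin subunit, and Mthfd2 (0.775). For Fos the likeness was weaker, with Prpmp5 (0.753), Trnt1 (0.719), Zfp760 (0.672), Slx4ip (0.664) and Fbxw18 (0.657), of which Prpmp5 and Fbxw18 were dim. These are the top 5 of 19938 genes for each factor, chosen by that value, and they carry no test. Dpt is also among the fibroblast markers.

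The machinery around the factors was described from lists. Of 15 measured genes upstream of the response (serum response factor and its partners, CREB factors and ERK pathway kinases), 0 passed between TG and WT myocytes in either set, with a median of 0.04 without serum and 0.03 with serum. The 2 with the smallest p with serum were Rps6ka3, the RSK2 kinase (0.23, adjusted p = 0.29), and Srf itself (0.25, adjusted p = 0.332). In rank with serum, 5 were higher and 3 lower in WT (33.3% and 20%) and 7 higher and 4 lower in TG cultures (46.7% and 26.7%). Of all genes, 28.6% were higher and 28.5% lower in WT and 30.8% and 31% in TG cultures. Atf1, a CREB family factor, was higher by 13.4 points in WT and 14.1 in TG cultures, and Rps6ka5, the MSK1 kinase that phosphorylates CREB and histone H3, was lower (-7.98 and -7.22). Of 15 genes listed as bZIP partners of the Fos proteins or other AP-1 factors, 9 of 15 had lower means in TG myocytes with serum, beside 11053 of all 19938 genes. Mafg led them (-0.21, adjusted p = 0.164), and 0 passed. In rank 3 were higher and 4 lower with serum in WT (20% and 26.7%, beside 28.6% and 28.5% of all genes), and 4 higher and 6 lower in TG cultures (26.7% and 40%, beside 30.8% and 31%). Batf was higher (6.71 and 5.41 points) and Jdp2, a repressor of AP-1, lower (-6.27 and -7.69) in both genotypes.

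Of 34 other immediate early genes, 26 had lower means in TG cultures with serum, beside 11053 of all 19938 genes. The median of the 34 was -0.13 beside -0.02 over all genes, and 0 passed. What part the marker imbalance has in this count was not tested. Ier3, which protects cells from apoptosis, went the other way (0.36, adjusted p = 0.292), and Nr4a1, an orphan nuclear receptor, had -0.23 (adjusted p = 0.356). Without serum 19 of 34 were lower, beside 10921 of all 19938 genes, with a median of -0.02 for the 34. In rank, 17 of the 34 were higher with serum in WT (50% of the list, beside 28.6%) and 4 lower (11.8%, beside 28.5%), and 16 were higher (47.1%, beside 30.8%) and 5 lower, beside 31%, in TG cultures. Ier3 (10.5 and 11.5 points) and Nfkbiz, an inducible regulator of NF-kappaB target genes (11.5 and 9.76), were higher in both genotypes. Errfi1, a feedback inhibitor of the EGF receptor (12.5), and Socs3, of cytokine signalling (5.36), were also higher in WT cultures. In TG cultures Lif, a cytokine of the interleukin 6 family, was higher by 11 points and Cxcl1, a chemokine of neutrophils, lower (-13.9). Genes named for 1 genotype were picked by their small p there. For the difference of the rank change between TG and WT cultures, 0 of the 34 passed.

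Known targets of the factors were taken next, where the members may also be driven by other factors. Of 18 Myc targets of nucleotide, polyamine and ribosome synthesis, 10 ranked higher with serum in WT (55.6%, beside 28.6% of all genes) and 12 in TG cultures (66.7%, beside 30.8%), and 0 lower in either, beside 28.5% and 31%. At an unadjusted p under 0.05 in limma 0 were lower as well. Polr1b, a subunit of RNA polymerase I (6.42 and 8.21 points), and Npm1, nucleophosmin (3.23 and 2.96), were among them in both, with Bop1 (3.19) and Eif4e (2.63) named for WT and Srm, spermidine synthase (3.71), and Nop56 (4.61) for TG cultures by their small p. Between TG and WT myocytes 0 of 18 passed, with Fbl (-0.16, adjusted p = 0.854) and Bop1 (0.06) having the smallest p without serum and Cad (-0.27, adjusted p = 0.395) and Ppat (0.17) with serum. In the Max network, Mxd4 (-5.68 and -6.57 points) and Mnt (-2.64 and -3.56), repressor partners of Max, ranked lower with serum, and Mycn, a paralog of Myc, higher (10.9 and 10.3). There 1 of 12 was called higher in each genotype (8.33%, beside 28.6% and 30.8% of all genes), 4 lower in WT (33.3%, beside 28.5%) and 6 lower in TG cultures (50%, beside 31%).

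Of 10 Nab corepressors and Egr targets, 6 ranked higher and 3 lower with serum in WT (60% and 30%, beside 28.6% and 28.5% of all genes) and 7 higher and 2 lower in TG cultures (70% and 20%, beside 30.8% and 31%). Id3, an inhibitor of helix-loop-helix factors, was higher by 18.8 and 22.1 points and Pdgfb, a platelet-derived growth factor chain, by 10.2 and 10.3. Nab2, the corepressor that Egr proteins induce against themselves, was higher by 3.34 in TG cultures. Icam1, an adhesion molecule, was lower in WT cultures (-10.1), and its TG minus WT difference with serum did not pass (-0.27, adjusted p = 0.328). For the difference of the rank change between TG and WT cultures, 0 of these 10 passed. Of 14 AP-1 targets, 6 ranked higher and 2 lower in WT (42.9% and 14.3%, beside 28.6% and 28.5% of all genes) and 7 higher and 3 lower in TG cultures (50% and 21.4%, beside 30.8% and 31%). Plaur, the urokinase receptor, was higher by 20.4 and 20.3 points, Il6 by 21.6 in TG cultures, and Mmp9, a gelatinase, was lower (-11.3 and -11). Here too 0 of the 14 passed for the difference of the rank change between genotypes. Hmox1, heme oxygenase 1, had a difference of -0.50 (adjusted p = 0.473) and Ccnd1, cyclin D1, of -0.16 (adjusted p = 0.475) between TG and WT myocytes with serum, and 0 of 14 passed. Of 11 heat shock genes, a sign of stress at harvest, 0 passed between genotypes. In rank 1 was higher and 3 lower with serum in WT (9.09% and 27.3%, beside 28.6% and 28.5% of all genes), and 2 were higher and 2 lower in TG cultures (18.2% each, beside 30.8% and 31%), with Hspe1 higher (2.68 and 2.76 points) and Hspa1a lower (-6.72 and -5.65).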

How the data were processed

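Affymetrix Mouse Gene 1.0 ST arrays were hybridized with RNA of 25 cultures. The authors used RMA as implemented in Expression Console 1.1 and deposited log2 intensities of 35557 probe sets, of which 21789 carry 1 gene symbol, 1621 several and 12147 are unnamed here. No per-sample column was left out (0 columns). Whether the sets with and without serum were normalized together is not given in the sources used here. Precision is limited by the number of arrays, which have no read depth.

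The 2 genotypes were compared inside each serum set on the log2 values with limma 3.58.1 (lmFit, eBayes) in R 4.3.3, and the difference of the 2 effects over all 25 arrays. Serum was compared with limma on percent ranks within arrays over 19938 genes. Benjamini-Hochberg adjustment covered all features, with a threshold of 0.05. Correlations were tested with 100000 permutations of cultures within groups. The limma steps were tested on simulated data. Where a gene had several probe sets, that of highest mean stood for it.

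The members and the gene lists (199 of 210 entries matched) were chosen with earlier results of these data known. Named were all 10 factors, Hey2, from each list the members past the test (up to 4) or the 2 with the smallest p, and the 5 genes most like Fos, Egr1 and Myc. Other names (marker genes as examples) were added after their values were seen. Culture numbers were not used to pair the samples in the main tests. Between genotypes, same-number residuals correlated at -0.449 to 0.15 without serum and -0.36 to 0.062 with serum. Between serum sets they correlated at -0.236 to 0.157 in WT and -0.23 to 0.194 in TG cultures. The paper's figure legends number the cultures without serum with gaps, unlike the labels. Equal numbers may therefore not mean 1 preparation, and neither these values nor the replicate block can exclude pairing. Alternatives were 1 fit over all arrays, centring, quantile normalization, array weights, a mean-variance trend, dim probe sets left out, averaging over probe sets of a gene, a replicate block, each array left out, other ranks, and, chosen after seeing the data, the 6 cultures low in myocyte markers left out and the marker mean as a covariate.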

Additional observations from a re-analysis of the deposited data

Results flagged for a closer look

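In 4 of 40 groups of cultures, 1 culture lay far from the others by Dixon's test, which chance alone does in about 1 in 20 groups. All 4 were highest values without serum. Egr1 was 7.43 in TG culture 1 and 7.58 in WT culture 1, where the other cultures of both groups reached at most 7.03. Fosl2 was 7.97 in TG culture 6, where the other 5 lay at 7.80 to 7.85, and 8.17 in WT culture 1, where the other 4 lay at 7.74 to 7.84. WT culture 1 was thus high in both genes. In both genes some of the other arrays held exactly the same value (7.031 in 5 arrays for Egr1 and 7.838 in 3 for Fosl2), which narrows the range against which a high culture was judged, and its part in these results was not tested.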

How the results depend on the processing

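No factor passed between TG and WT myocytes, or in either difference between effects, under any alternative run. With serum, the 3 probe sets called became 141 in 1 fit over all 25 arrays, 40 with the myocyte marker covariate, 5 with centred arrays, quantile normalization or dim probe sets left out, and 1 when probe sets of a gene were averaged or with culture number as a replicate block, and 1 to 3 without any 1 culture. Averaging tested 19938 genes in place of 35557 probe sets, and 1 of these genes was called in the main test. Without serum 0 became 1 without the cultures low in myocyte markers. The 1 call for the difference of the 2 effects became 6 with centring or array weights, 0 with quantile normalization or the replicate block, and 0 to 4 without any 1 culture. That for the rank shifts became 0 over all probe sets, with the replicate block or without the low cultures, and 0 to 1 without any 1 culture. Rank shifts called in WT and TG myocytes (11393 and 12320 genes) became 6479 and 7068 over genes with a mean of 5 or more. Fewer genes were tested there, so these counts cannot be set directly against the main ones. Of the 10 factors, 6 were called in WT, and 4 to 7 under the alternatives, with 4 under the replicate block, where Fosl1 (adjusted p = 0.0519) and Fos (0.0565) were lost. In TG myocytes 9 were called, and 6 to 9 under the alternatives, with 6 on the deposited log2 scale.

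Signs turned as follows, for differences between genotypes that were not called. Without serum, centring gave 0.00556 for Fosl2, 0.0284 for Atf3 and 0.0126 for Myc, and the covariate gave 0.0556 for Atf3. With serum, leaving out the low cultures gave 0.022 for Fosl2 and 0.00654 for Myc, and the covariate gave 0.045 for Fosl2, 0.0635 for Atf3 and 0.207 for Myc. On deposited log2 values the sign turned against the rank shift, called for Fos and for Junb in TG myocytes, and the serum difference was 0.116 for Fos and 0.0815 for Atf3 in WT, and 0.0767 for Fos, 0.31 for Fosb and 0.043 for Junb in TG myocytes. Without any 1 culture, ranges without serum were -0.145 to 0.131 for Atf3, -0.156 to 0.111 for Myc, -0.0607 to 0.0486 for Fosl2, -0.116 to 0.0838 for Egr1 and -0.0281 to 0.129 for Egr2. With serum they were -0.0858 to 0.141 for Egr2, -0.129 to 0.00517 for Fosl2 and -0.0106 to 0.0492 for Junb, and the rank shift of Fosb in TG myocytes was -2.2 to 0.191. The cause of these changes was not tested.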
